A study of Mus musculus with 3 samples.

Results

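The 9 genes described here (Odc1, Oaz1, Oaz2, Azin1, Amd1, Srm, Sms, Sat1 and Smox) encode the enzymes and regulators that make and break down polyamines in mouse cells. They were chosen by symbol, for this pathway, out of 55536 mouse genes in the deposited gene quantification. RNA with a poly(A) tail was sequenced from 3 libraries of primary macrophages grown from the bone marrow of C57BL/6J mice and exposed for 180 min to 100 ng/mL of a stimulus. The labels call the stimulus lipid A, the lipopolysaccharide component of bacteria sensed by Toll-like receptor 4, in one place and lipoprotein A in another; lipid A is used below. The libraries are labelled as biological replicates 1, 2 and 3 of 1 group, yet carry the same donor identifier, and age and sex were not collected, so the spread between them may be partly technical. No unstimulated macrophages were analysed here, so no value below is a response to lipid A.

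Polyamines are small, positively charged molecules that bind nucleic acids and support translation and growth. Ornithine decarboxylase (Odc1) makes putrescine, spermidine synthase (Srm) and spermine synthase (Sms) extend it with aminopropyl groups supplied through S-adenosylmethionine decarboxylase (Amd1), and Sat1 and Smox drive the way back by acetylation and oxidation. Antizymes (Oaz1, Oaz2) bind Odc1 and send it to the proteasome, their translation needs a polyamine-stimulated ribosomal frameshift, and the antizyme inhibitor Azin1, a relative of Odc1 without enzyme activity, captures antizyme. In macrophages the pathway is known through arginine, which arginase turns into the ornithine that Odc1 uses and which nitric oxide synthase uses instead for nitric oxide.

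The results on transcripts below turn on short stretches of a few annotated transcript models, read from the GENCODE M21 transcripts (mm10) and printed 5′ to 3′. The first set shows the antizyme frameshift site, since the models treat it differently. On the plus strand at chr10:80828280-80828312 in Oaz1, capitals mark the TGA stop codon at which the reading frame of the main coding model ends unless the ribosome shifts. The model Oaz1-207 leaves out the T of that codon, which writes the frameshift into the model as a gap of 1 base, and capitals there mark what remains of the codon. The processed pseudogene Oaz1-ps holds the same 33 bases as the intact gene with 0 differences. In Oaz2 the same site lies at chr9:65686257-65686289 on the plus strand, where Oaz2-206 leaves out 1 base and Oaz2-201 leaves out 4.
Oaz1-205: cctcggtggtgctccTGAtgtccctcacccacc
Oaz1-207: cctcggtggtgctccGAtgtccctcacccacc
Oaz1-ps: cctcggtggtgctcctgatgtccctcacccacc
Oaz2-205: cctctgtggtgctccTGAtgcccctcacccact
Oaz2-206: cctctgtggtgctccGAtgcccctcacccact
Oaz2-201: cctctgtggtgcGAtgcccctcacccact

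The second set shows how a premature stop codon arises in models annotated as targets of nonsense-mediated decay, the pathway that degrades transcripts whose stop codon lies too early. Each pair starts at the same base on the minus strand of chromosome X, and capitals mark the early stop. In Sat1-207 an extra exon of 110 bases (chrX:155215121-155215230) is spliced in, 11 coding bases of which precede the stop codon. In Sms-204 an exon of 115 bases (chrX:157455994-157456108) is left out, which shifts the frame into a stop codon at chrX:157454887-157454889.
Sat1-207: cactggacccctgaaggttacagtctcTAG
Sat1-201: cactggacccctgaaggacatagcattgtt
Sms-204: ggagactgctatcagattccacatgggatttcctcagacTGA
Sms-201: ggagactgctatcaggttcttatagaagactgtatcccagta

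The leader of Amd1-201 (328 bases ahead of the coding sequence) holds 1 upstream reading frame, at chr10:40302155-40302175 on the minus strand. It has 6 codons before its stop codon, in capitals, and belongs to the mRNA through which polyamines are known to repress Amd1 translation, a step that RNA levels do not show.
Amd1-201 upstream frame: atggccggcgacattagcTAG

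The libraries held 24450319, 34641015 and 60595716 rounded counts assigned to mouse genes, in the order of replicates 1, 2 and 3, so the values of replicate 3 have the smallest counting error. All 8 macrophage markers on a list of Adgre1, Csf1r and similar genes reached 1 TPM (a share of all transcripts, scaled for transcript length) in every replicate. They summed to 29264, 19349 and 23771 TPM, lowest in replicate 2. Most of each sum was Lyz2, at 23350.95, 13754.52 and 17084.86 TPM. In counts scaled for library size, 5 of the 8 were lowest in replicate 2 and 2 were highest there. Libraries were not alike in other cell markers: 10 neutrophil genes summed to 93.5, 729 and 55.6 TPM, with 4 of 10 detected and Ly6g listed at 0 in all 3. Proliferation genes, 10 in number with 7 detected, summed to 267, 466 and 333 TPM. Pcna made most of each of these sums, at 207.63, 354.98 and 269.88 TPM. In counts scaled for library size, 9 of the 10 were highest in replicate 2. The exception, Mki67, was lowest there, at 28.54, 26.27 and 26.89 TPM in replicates 1, 2 and 3. Fibroblast genes, with 0 of 5 detected, summed to 0.170, 7.04 and 0.410 TPM. Replicate 2 was highest on the neutrophil, proliferation and fibroblast lists. Erythroid genes summed to at most 0.02 TPM. In these bulk libraries, fewer cells of a type and less RNA per cell cannot be told apart.

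All 9 genes reached 1 TPM in every replicate, as did 10026 genes of the series, whose median stood at 14.6 TPM. Their levels spanned a wide range, from Sat1 at the top to Srm at the bottom. Sat1, Oaz1 and Odc1 stood at percentiles 97.8, 95.9 and 91.8 of detected genes, Amd1 at percentile 49.7 and Srm at 27.4. In the order of mean TPM the genes ran Sat1, Oaz1, Odc1, Azin1, Smox, Sms, Oaz2, Amd1, Srm. Of the 8 neighbouring pairs in this order, 7 differed in the same direction in 3 of 3 replicates with a mean log2 ratio above its SD. Smox and Sms did not differ beyond their spread: their log2 ratio of (TPM + 0.1) was 0.23 ± 0.46 (SD, n = 3). Signs of the 3 replicate values were flipped in all ways for each pair (an exact, two-sided permutation test), which cannot go below p = 0.25, so no pair could pass a threshold of 0.05. For the 7 neighbouring pairs p was 0.25 (0.29 adjusted over the 8 pairs), and for Smox and Sms it was 0.50 by the same exact test.

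**Figure D1:**
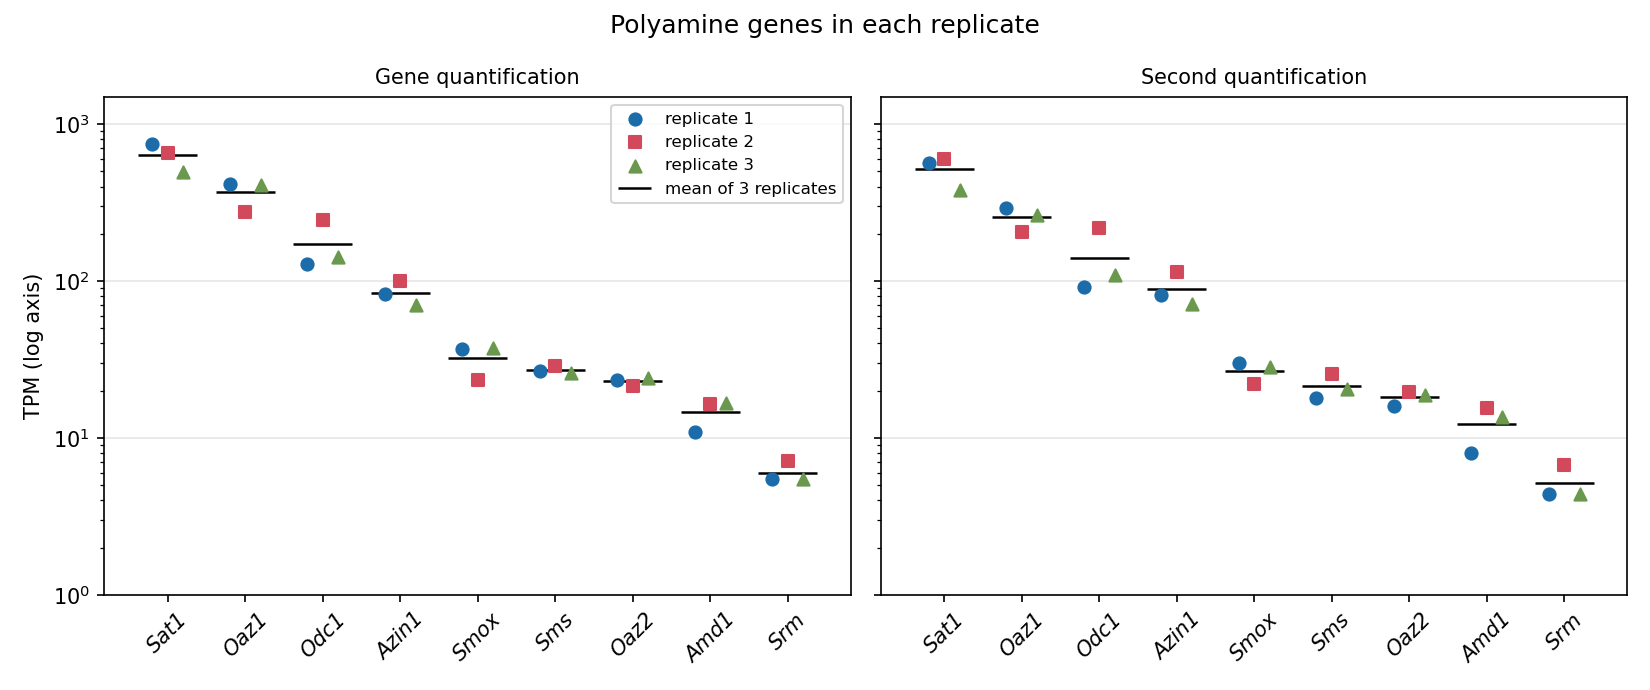
TPM of the 9 polyamine genes on a log axis, ordered by mean, in the gene quantification (left) and the second quantification (right); symbols are replicates and black lines are means of 3. Sat1 is highest and Srm lowest in both panels, and Odc1 stands apart in replicate 2.

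Ornithine decarboxylase, the entry point of the pathway, varied most of the 9 relative to its mean, with a coefficient of variation of 36.9% in TPM. Odc1 (chr12:17544794-17551505, plus strand) had 127.72, 243.76 and 142.40 TPM in replicates 1, 2 and 3, a mean of 171 ± 63.2 (SD, n = 3). Replicate 2 was high, and the other two lay close together below it. In the second quantification the values were 91.31, 216.58 and 109.71 TPM, with the same replicate on top. In CPM (rounded expected counts scaled to library size) after TMM scaling, edgeR's correction for library composition, Odc1 stood at 162, 291 and 180, a highest to lowest ratio of 1.79. Among 5761 detected protein-coding genes with a mean of 10 TPM or more, the 5 whose pattern over the 3 replicates lay nearest to Odc1, by Euclidean distance of centred log2(TPM + 0.1), were Slc16a10, Asf1a, Ankrd28, Smim8 and Immp1l, at distances of 0.016 to 0.039. With 3 points such likeness is common, and 187 genes lay within 0.25.

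Odc1's relative Azin1, the antizyme inhibitor gene, followed at a lower level. Azin1 (chr15:38487427-38519266, minus strand) had 82.39, 99.80 and 70.30 TPM, a mean of 84.2 ± 14.8 (SD, n = 3), again with replicate 2 on top. Odc1 exceeded Azin1 in every replicate, with log2 ratios of 0.63, 1.29 and 1.02 (0.98 ± 0.33, a 1.97-fold ratio). The coding sequences of Odc1-201 and Azin1-201 are 59.1% identical over 1397 aligned columns. Without length scaling, in CPM, the pair's mean log2 ratio was -0.04. The quantifications disagreed on the leading Azin1 model: Azin1-201 (4871 bases) took 47.8% of Azin1 TPM on average in the first and 9.73, 12 and 8.42% in the second, where Azin1-203 (4217 bases) led with a mean of 55.2%. Both are longer than Odc1-201, which has 2208 bases.

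Azin2, the second inhibitor gene, was low, at 2.18, 1.47 and 1.37 TPM with 35 to 59 counts per library, and Azin1 exceeded it by 5.58 ± 0.41 on the log2 scale.

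Antizyme 1 was the second most abundant of the 9. Oaz1 (chr10:80826656-80829290, plus strand) had 414.31, 277.29 and 410.36 TPM, a mean of 367 ± 78 (SD, n = 3). Here replicate 2 was the low one, opposite to Odc1. The ratio of antizyme to its target was accordingly lowest in that library: TPM of Oaz1 was 3.24, 1.14 and 2.88 times that of Odc1. On the log2 scale this was 1.70, 0.19 and 1.53, with a mean of 1.14 ± 0.83 and an exact sign-flip p of 0.25 (n = 3). In the second quantification the replicate 2 value was -0.08, so there Oaz1 did not exceed Odc1. Replicate 2 is also the library with the highest neutrophil, fibroblast and proliferation sums given above. Its macrophage sum, made mostly by Lyz2, was the lowest, though not every marker on that list was low there. The part of these cells in this ratio was not tested.

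The same held for the other partner of Oaz1. Against Azin1, Oaz1 was 4.33-fold higher (log2 2.12 ± 0.57), again with the lowest ratio, 1.47, in replicate 2. That pair's mean was 1.52 in the second quantification. In CPM without length scaling the log2 ratio of Oaz1 to Odc1 was 0.05, -1.55 and -0.21, so its mean of -0.57 was largely made by replicate 2 (exact sign-flip p = 0.50, n = 3). Against Azin1 it was -0.18, -1.40 and -0.27 (mean -0.62). The order of levels holds per length only.

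The second antizyme gene was far lower and steadier. Oaz2 (chr9:65668001-65690300, plus strand) had 23.50, 21.44 and 23.93 TPM, a mean of 23.0 ± 1.33 (SD, n = 3). Oaz1 exceeded Oaz2 by 3.97 ± 0.25 on the log2 scale, 15.7-fold, in 3 of 3 replicates. Coding sequences of the pair share 52.8% of 687 aligned columns. Oaz3, the antizyme gene of the germ line, had 2, 0 and 1 counts.

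A near-identical copy limits the Oaz1 value. The transcript of Oaz1-ps matches Oaz1-207 at 683 of 685 aligned bases (99.7%), and the quantification placed 47.27, 32.55 and 39.23 TPM on it. These were 10.2, 10.5 and 8.73% of the sum of gene and copy, which was 407 ± 84.4 TPM (SD, n = 3). In the second quantification the copy took 10.9, 16.9 and 15.8%, more in replicates 2 and 3. With the copy's TPM added, an alternative chosen after these values were seen, the log2 ratio of Oaz1 to Odc1 was 1.29. The pseudogene carries the intact frameshift codon shown above and Oaz1-207 does not. A read with the intact codon thus matches Oaz1-205, the retained-intron model Oaz1-206 and Oaz1-ps there but not Oaz1-207.

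**Figure D2:**
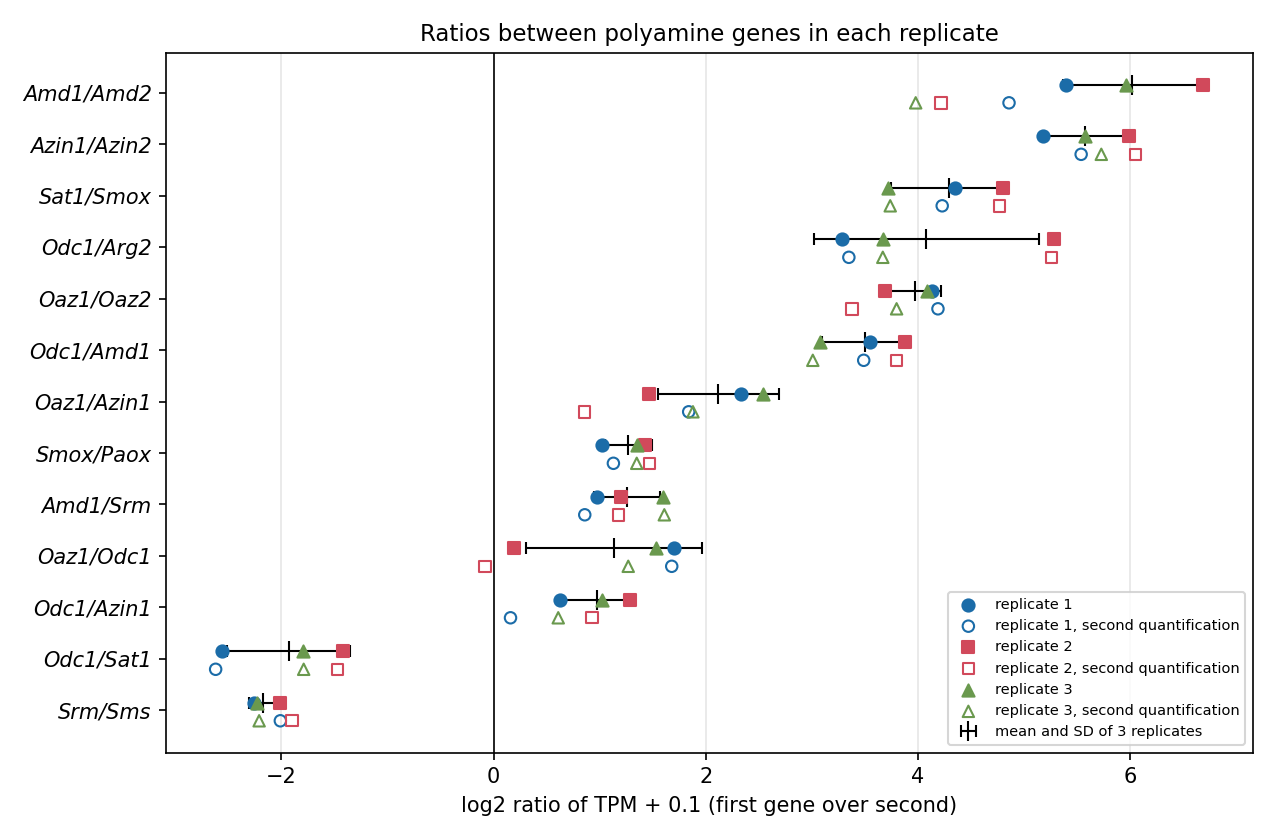
Log2 ratios of (TPM + 0.1) for 13 gene pairs; filled symbols are replicates of the gene quantification, open symbols the second quantification, and bars the mean and SD of 3 replicates. All filled symbols of a pair lie on 1 side of 0, and the Oaz1/Odc1 ratio is near 0 in replicate 2.

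Genes of the aminopropyl branch stood far below Odc1. Of the 13 gene pairs compared in all, each kept its direction in 3 of 3 replicates with an exact sign-flip p of 0.25, also 0.25 after adjustment over the 13 (n = 3). Amd1 (chr10:40287458-40302186, minus strand) had 10.85, 16.44 and 16.70 TPM, a mean of 14.7 ± 3.31 (SD, n = 3), with replicate 1 low. Srm (chr4:148591503-148594993, plus strand) was the lowest of the 9, at 5.47, 7.08 and 5.46 TPM, a mean of 6.00 ± 0.932. Its values rest on 95, 173 and 228 counts, with exact 95% Poisson intervals of 76.9 to 116.1, 148.2 to 200.8 and 199.4 to 259.6. These intervals cover counting error only, since amplified fragments were counted without tags that mark single molecules.

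Spermine synthase was higher than spermidine synthase. Sms (chrX:157443855-157492287, minus strand) had 26.62, 28.83 and 25.96 TPM, a mean of 27.1 ± 1.5 (SD, n = 3). The log2 ratio of Srm to Sms was -2.26, -2.01 and -2.23, so Sms exceeded Srm 4.49-fold in 3 of 3 replicates. Odc1 exceeded Amd1 by 3.50 ± 0.40 on the log2 scale (11.3-fold), and Amd1 exceeded Srm by 1.26 ± 0.31 (2.39-fold).

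Both Amd1 and Sms have near-identical copies. The transcripts of Amd1-201 and Amd2-201 share 3188 of 3202 aligned bases (99.6%), yet Amd2 received only 0.16, 0.06 and 0.17 TPM, on 7, 4 and 20 counts. The log2 ratio of Amd1 to Amd2 was 6.02 ± 0.65; the second quantification gave 4.36, and a pseudocount of 1 TPM gave 3.77. Sms-ps, a processed pseudogene, matches Sms-201 at all 1101 aligned bases and was listed at 9.36, 12.06 and 7.99 TPM, so the Sms and Sms-ps values cannot be told apart over that stretch. Adding the copy gave 36.9 ± 3.57 TPM for Sms and a log2 ratio of Srm to Sms of -2.61.

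Catabolic genes included the most abundant of the 9. Sat1, which encodes the acetyltransferase that marks spermidine and spermine for export or oxidation (chrX:155213132-155216449, minus strand), had 752.01, 652.33 and 497.12 TPM, a mean of 634 ± 128 (SD, n = 3). Replicate 3 was the low library. In the second quantification TPM was 562.24, 602.05 and 379.44, which left replicate 3 lowest but put replicate 2 on top. Smox, the spermine oxidase gene (chr2:131491496-131525922, plus strand), had 36.67, 23.39 and 37.56 TPM, a mean of 32.5 ± 7.94, with replicate 2 low.

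Sat1 exceeded Smox by 4.29 ± 0.54 on the log2 scale (19.6-fold). It also exceeded Odc1 3.80-fold, with Odc1/Sat1 log2 ratios of -2.56, -1.42 and -1.80 (-1.93 ± 0.58). In CPM without length scaling that mean was -0.84. The same change moved Oaz1/Oaz2 to 2.70, Odc1/Amd1 to 2.87, Srm/Sms to -3.04, Amd1/Srm to 2.70, Sat1/Smox to 3.44, Azin1/Azin2 to 7.39 and Odc1/Arg2 to 4.78, all in the direction they had per length. Acetylpolyamine oxidase, encoded by Paox, acts on the products of Sat1. Paox had 18.02, 8.63 and 14.71 TPM and lay 2.40-fold below Smox (log2 1.27 ± 0.22). The related genes Sat2 (0.26, 0.63 and 0.91 TPM, on 3, 9 and 20 counts) and Satl1 (0 in all 3) were under 1 TPM.

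Replicates were compared by a chi-square test of equal rates on rounded expected counts with TMM factors, adjusted by Benjamini-Hochberg over 11611 genes. This asks whether 3 libraries differ beyond counting error, not whether a condition had an effect. Counts differed for 8 of the 9 genes at an adjusted p under 0.05, against 77.5% of all tested genes. A highest to lowest ratio of 1.5 or more in addition was met by 5 of 9, against 33.4% of all tested genes: Odc1 (1.79), Oaz1 (1.69), Sat1 and Smox (1.59 each) and Amd1 (1.56). Srm was the gene not called, at an adjusted chi-square p of 0.16. The weakest calls were Sms (adjusted chi-square p = 0.023, ratio 1.13) and Oaz2 (0.0075, ratio 1.16). Without TMM scaling the Oaz2 call was lost (adjusted p = 0.41) and Srm was called (0.019). The member median of edgeR's biological coefficient of variation, the spread beyond counting error, was 20.6%, beside 21.3% over all tested genes.

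The replicate with the highest level differed between the genes. In CPM with TMM scaling, 4 of 9 were highest in replicate 2 (Odc1, Azin1, Srm and Sms), against 37.8% of all tested genes. Highest in replicate 1 were 3 of 9 (Oaz1, Sat1 and Smox), against 31.6%. Oaz2 and Amd1 were highest in replicate 3, where 30.6% of all tested genes were highest. In replicate 2, 3 of 9 were lowest (Oaz1, Oaz2 and Smox), against 36.6%. These shares are near the background. Without replicate 2, 4 of 9 genes were called (Odc1, Oaz1, Amd1 and Sat1), beside 50.6% of all tested genes, and the Odc1 ratio was 1.11. Without replicate 1, 7 of 9 were called, beside 64.3%, and without replicate 3, 8 of 9, beside 58.8%. With a ratio of 1.5 or more, 2 of 9 were called without replicate 2 (Amd1 and Sat1), beside 12.6% of all tested genes. The same rule called 3 of 9 without replicate 1, beside 20.9%, and 3 of 9 without replicate 3, beside 21.3%. The share over all genes fell in each of these runs. The members' counts fell too, except that 8 of 9 stayed called without replicate 3 under the plain rule.

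**Figure D3:**
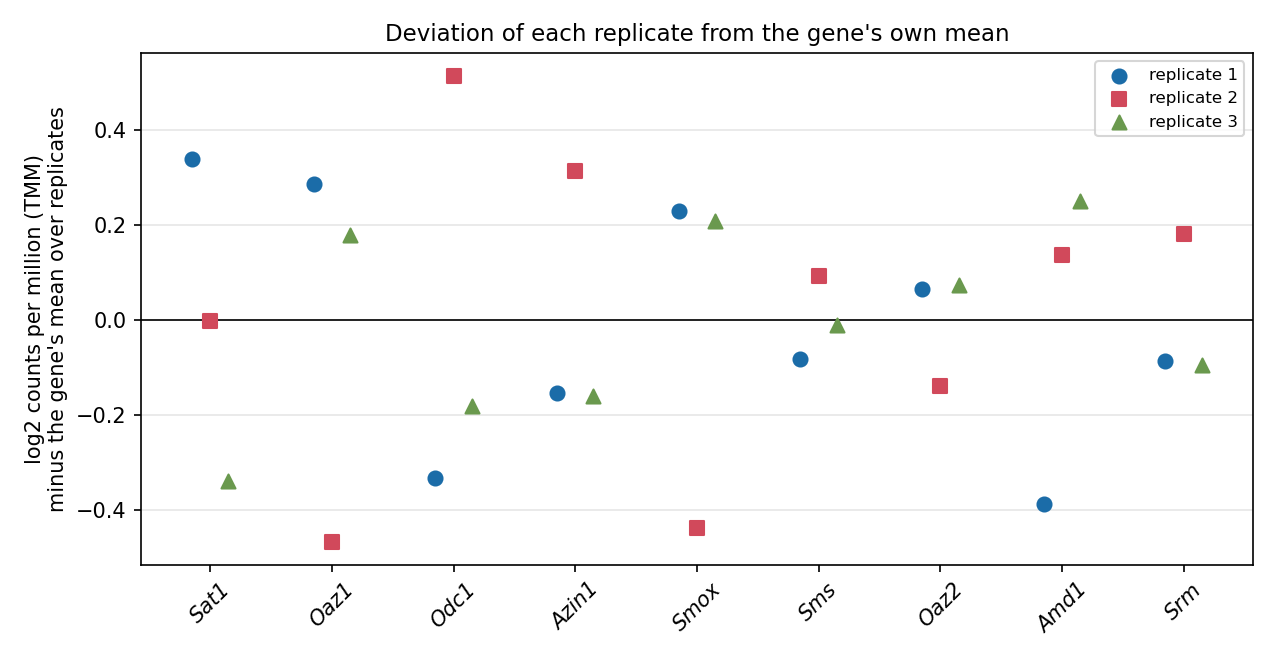
Log2 CPM with TMM scaling of each of the 9 genes, minus that gene's mean over the 3 replicates; symbols are replicates. Odc1 and Azin1 are high in replicate 2 where Oaz1 and Smox are low, and Sms, Oaz2 and Srm show the narrowest spread.

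The 9 genes have 67 annotated transcripts, and the share of each gene's summed transcript TPM was followed by annotated class. The median share of protein-coding models over the 9 genes, taken in each replicate and averaged over replicates, was 87.1%. Over 9373 detected protein-coding genes the medians were 96.8, 97.5 and 97.9% in replicates 1, 2 and 3. The comparison is unlike, since that background includes genes with coding models only. Of detected protein-coding genes, 2909 have a decay model and 5875 a retained-intron model. In the first quantification Amd1 and Srm were almost wholly protein-coding. Coding models held 99.9 ± 0.207% (SD, n = 3) for Amd1 and 100% in every replicate for Srm. In the second they held 100, 98.2 and 99.4% for Amd1, but 84.5, 96.0 and 100% for Srm. Smox spread over several coding models, led by Smox-207 (30.4 ± 1.96%) and Smox-201 (28.2 ± 2.00%).

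In length-scaled TPM, though not in counts, most of the Sms level was assigned to a model annotated for nonsense-mediated decay. Sms-204, which lacks the 115-base exon shown above, took 58.0, 54.5 and 63.0% of Sms TPM in replicates 1, 2 and 3, a mean of 58.5 ± 4.26% (SD, n = 3). The full coding model Sms-201 took 28.7, 36.0 and 33.0%. In expected counts, which are not scaled for length, the order was the other way: Sms-204 held 39.6, 33.4 and 40.0% of Sms counts and the longer Sms-201 52.9, 60.5 and 57.4%. The second quantification gave a mean of 61.8% for Sms-204. By a rule set after these values were seen, over 50% in every replicate, 2.68% of 2909 detected protein-coding genes with such a transcript were like Sms.

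The copy bears on this share directly. Sms-ps matches Sms-201 throughout but Sms-204 at 986 of 1101 aligned columns, the difference being the 115 bases of the exon left out. Reads on that exon can thus go to Sms-201 or to Sms-ps but not to Sms-204. With the TPM of Sms-ps added to the total, Sms-204 took 42.9, 38.4 and 48.2% (43.2 ± 4.87%). The 2 models also end differently, with last exons of 481 bases in Sms-204 and 2322 in Sms-201, and whether reads at the skipped exon or at the transcript ends set the share was not tested.

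The makeup of Sat1 differed between libraries. Its 4 retained-intron models took 21.1, 20.7 and 8.07% of Sat1 TPM, and the second quantification gave 29.4, 28.3 and 11.9%. Replicate 3 was low in both. Retained-intron models also held less of the whole library there, at 3.84, 3.40 and 2.67% of TPM. By a rule set after the Sat1 values were seen, a share in replicate 3 below 0.5 times that in each other replicate, 19.2% of 1877 genes with 5% or more in replicates 1 and 2 showed the same. The model with the extra exon, Sat1-207, took 4.86, 5.84 and 5.6% (5.43 ± 0.511%), close to level across replicates. A minor coding model, Sat1-202, took 2.00, 5.43 and 12.8%, different in all 3 libraries, but 3.11, 2.67 and 5.55% in the second quantification. In TPM the coding model Sat1-201 was also lowest in replicate 3, at 541.50, 443.72 and 365.60.

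Odc1 and Azin1 both carried minor decay models. Odc1-205, whose early stop codon lies at chr12:17549421-17549423, took 15.2, 14.8 and 17.3% of Odc1 TPM, and 9.75% on average in the second quantification. Its last exon has 899 bases, against 478 in Odc1-201, and whether reads at the early stop or at the transcript end set the share was not tested. The share was lowest in replicate 2, though close to that in replicate 1. In replicate 2 the coding model Odc1-201 stood at 204.69 TPM beside 107.38 and 115.38. Azin1 retained-intron models took 20.6, 3.67 and 9.05% of Azin1 TPM, highest in replicate 1, nearly all of it on the 591-base Azin1-209. Length scaling of a short model makes that share larger than it is in counts. Azin1-209 held only 89.1, 22.8 and 75.0 expected counts, of 4565.00, 9529.90 and 10923.85 for the gene. In counts too, its part of the gene was largest in replicate 1. The Azin1 decay model Azin1-205 took 5.51 ± 1.58% of TPM.

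The antizyme models split at the frameshift site. Oaz1-207, with 1 base left out, took 58.4, 57.8 and 56.7% of Oaz1 TPM, and the shorter Oaz1-205, which holds the intact bases, took 36.1, 39.5 and 40.6%. Together with Oaz1-206, models with the intact codon held 39.3 ± 2.29% and models with the gap 59.1 ± 2.12% (SD, n = 3). In expected counts, which are not scaled for length, the gap between them was wider. Oaz1-207 held 3057.7, 2815.0 and 7001.7 counts and Oaz1-205 held 681.3, 647.3 and 1714.7. The models share 1 genome position, so the shares above give the division of length-scaled TPM among models. They are no measure of how often ribosomes shift.

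Oaz2 shows the same limit more sharply. Oaz2-201 had 18.24, 0.01 and 13.59 TPM, and Oaz2-206 had 0, 17.40 and 4.41. The 2 models differ in the letters printed above by 3 bases, and their values traded places between replicates. Added together, models with a gap held 77.6, 81.2 and 75.2% of Oaz2 TPM. The retained-intron model Oaz2-205 took 17.2 ± 3.22%.

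**Figure D4:**
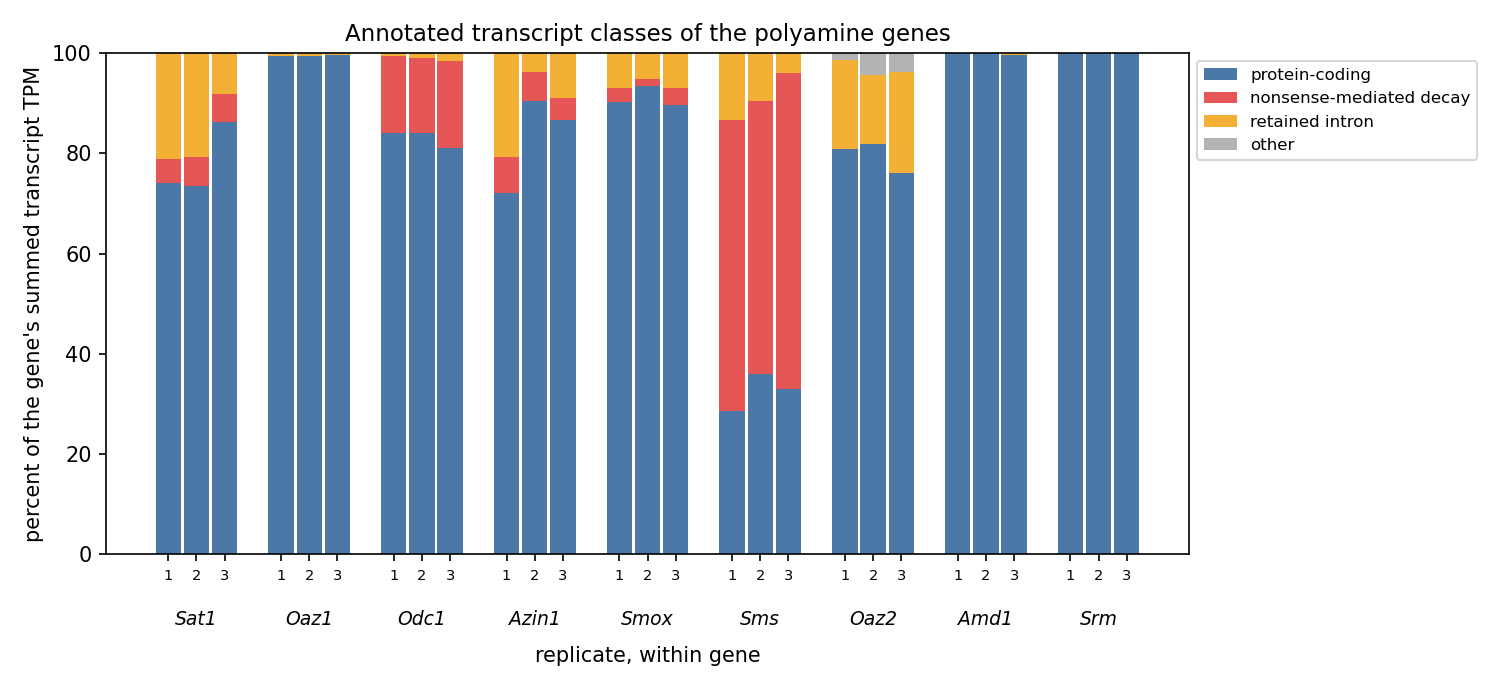
Share of each gene's summed transcript TPM held by annotated transcript classes (stacked to 100%), with replicates 1, 2 and 3 side by side within each gene. The first transcript quantification is shown. Sms is mostly decay-annotated, the Sat1 retained-intron share is lowest in replicate 3, and Amd1 and Srm are nearly all protein-coding.

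Beyond the 9, 53 genes that feed, move, use or regulate polyamines were read alongside, of which 36 were detected and 39 tested. The replicate test called 31 of the 39, with 16 at a ratio of 1.5 or more, beside the 77.5% and 33.4% of all tested genes. Of the 39, 11 were highest in replicate 1, 16 in replicate 2 and 12 in replicate 3. The shares of all tested genes were 31.6, 37.8 and 30.6%. Lowest in replicates 1, 2 and 3 were 20, 15 and 4 of the 39, beside 32.8, 36.6 and 30.5% of all tested genes. Their median highest to lowest ratio was 1.46, beside 1.38 over all tested genes.

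Ornithine and arginine supply was led by Nos2, inducible nitric oxide synthase, at 119.37, 113.44 and 126.22 TPM, with 8 of 11 genes detected. Arg1, the cytosolic arginase, was listed at 0, 0.07 and 0 TPM, and Agmat at 0, while Aldh18a1 stood at 0.89 to 1.09. Arg2, the mitochondrial arginase, had 12.99, 6.17 and 11.07 TPM and was low in the library where Odc1 was high. In CPM, 36.6% of all tested genes were lowest in that library, as were 4 of the 9 tested genes on this list. Odc1 exceeded Arg2 by 4.08 ± 1.06 on the log2 scale, and by 3.48 without replicate 2.

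Transport genes were detected in 3 of 10 cases. Slc3a2, the heavy chain of amino acid transporters that has been linked to polyamine export, was highest at 338.92, 323.47 and 435.10 TPM. The lysosomal polyamine exporter Atp13a2 had 102.49, 64.89 and 99.44 TPM and its relative Atp13a3 19.57, 38.11 and 26.22. Atp13a2 was lowest and Atp13a3 highest in replicate 2. Below 1 TPM in at least 1 replicate were Atp13a4, Slc18b1, Slc47a1 and Slc22a3 (all at most 0.61), and Slc22a2 and Slc12a8 were listed at 0 throughout.

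Hypusination, the use of spermidine to modify the translation factor eIF5A, had all 4 genes detected. Eif5a itself was at 310.49, 384.50 and 373.97 TPM, and the enzymes Dhps and Dohh at 30.7 ± 1.49 and 15.4 ± 2.38 (SD, n = 3). In the methionine cycle and salvage list, which supplies the aminopropyl donor and recycles its by-product, 11 of 13 were detected. Mat2a, the S-adenosylmethionine synthetase, led with 58.12, 61.66 and 52.36 TPM, Mtrr was under 1 TPM in replicate 3 (0.78) and Mat1a was at 0.

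The Myc network, whose Myc and Max proteins are known to activate Odc1 in other cells, had 7 of 8 detected and was led by Max, the shared partner, at 178.72, 175.11 and 174.41 TPM. Myc itself had 2.05, 1.27 and 1.5 TPM on 64, 60 and 119 counts, and 1.38, 1.23 and 1.38 TPM in the second quantification. It was lowest in replicate 2, where Odc1 was highest, but so were 36.6% of all tested genes in CPM. Mycn had at most 0.04 TPM. Of 7 relatives of the members, 3 were detected: Paox, Azin2 and Hdac10, a polyamine deacetylase gene at 2.16, 2.50 and 2.25 TPM.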

How the data were processed

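Per the text files deposited beside the data, the authors derived a gene and a transcript quantification from alignments to mm10 with GENCODE M21, and a second transcript quantification directly from the reads; replicates were not pooled. The strand setting and the aligner and quantifiers used were not given in the sources used here. As deposited, per the file headers, values are expected counts (estimated fragment counts), TPM and FPKM. Deposited TPM was used as it stands for levels, and deposited FPKM only to recount detected genes. Expected counts were rounded and tested with a chi-square test of equal rates in R 4.3.3, using edgeR 4.0.16 for filtering (filterByExpr), TMM factors and dispersion, with DESeq2 1.42.0 size factors as an alternative; the procedure was tested on simulated data. Entries that name no mouse gene stayed out.

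Log2 ratios used a pseudocount of 0.1 TPM and understate ratios of low genes. Ratios of 13 pairs were tested by exact sign flips, with p adjusted over the 13. Sequences came from GENCODE M21 transcripts, and identities from pairwise alignment. Named are the 9 genes, their relatives, the highest gene of each pathway list and every list member under 1 TPM in a replicate, and the 5 genes most like the member with the largest highest to lowest TPM ratio; 1 item is not reported here. Members and lists were chosen with earlier results of these data known.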

Additional observations from a re-analysis of the deposited data

How the results depend on the processing

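Of 82 alternative values of the 13 pair ratios, 79 kept their direction and 16 moved by over 1.5 times. Many of the 79 could not have reversed. All 13 pairs lay on 1 side of 0 in every replicate. Leaving out a replicate or using a pseudocount of 1 TPM therefore kept their direction by construction. Adding a near-identical copy raised only the higher gene of a pair. A reversal was possible only in the second quantification and in CPM. The 3 that reversed used CPM without length scaling: Oaz1/Odc1 at -0.57, Oaz1/Azin1 at -0.62 and Odc1/Azin1 at -0.04 (log2), where long transcripts weigh more by construction. All 9 genes were detected in every alternative except a floor of 10 TPM, which Srm missed and which left 8. Leaving out 1 replicate gave 4 to 8 genes called, beside 50.6 to 64.3% of all genes, and 2 to 3 called with a ratio of 1.5 or more, beside 12.6 to 21.3% of all genes. With no count filter 49.6% of all genes were called, since low genes enter. The members' median biological coefficient of variation was 20.7% with DESeq2 size factors, 21.1% without the filter and 16 to 22.3% with 1 replicate left out. Decay models held 9.79% of Odc1 TPM in the second quantification beside a higher main value. No paired analysis was possible because there is 1 group. With 3 replicates and no control, depth limits Srm among the members, and the low relatives such as Amd2, Oaz3, Azin2, Sat2, Satl1 and Hdac10, which rest on 0 to 228 counts per library.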
